A study of Mus musculus with 12 samples.

Results

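Transcripts of 10 genes of the ErbB signalling system were followed in sorted mouse hepatocytes. They were chosen by name from the 16116 gene symbols of the deposited table: the ligand genes Nrg1, Areg, Ereg, Hbegf, Tgfa and Btc, the receptor genes Egfr, Erbb2 and Erbb3, and the inhibitor gene Errfi1. The table gives log2 CPM, the log2 of the reads of a gene scaled to a common library total. A gene was tested when 2 or more libraries reached a log2 value of 1, which 10681 genes did. Of the members 8 were tested, and Ereg and Erbb2 were below that limit.

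Messenger RNA was read with the Ion AmpliSeq mouse transcriptome panel, 1 amplicon per gene, in 12 libraries, 2 in each of 6 groups. The controls of the YAP experiment were wild type mice given AAV2/8-TBG-GFP (the wild type GFP control). Sox9 fl/+ mice (YAP Sox9 het) and Sox9 fl/fl mice (YAP Sox9 null) were given both AAV2/8-TBG-Cre and AAV2/8-TBG-YAP S127A-P2A-GFP. YAP is a transcriptional coactivator that the Hippo kinases Mst1 and Mst2 restrain, and the S127A form lacks a phosphorylation site through which they act. In the Mst experiment all mice carried Mst1 fl/fl, Mst2 fl/fl and a ROSA26-lsl-TdTomato reporter. One group was given AAV2/8-TBG-GFP (the floxed GFP control). Mice that also carried Sox9 fl/+ (Mst Sox9 het) or Sox9 fl/fl (Mst Sox9 null) were given AAV2/8-TBG-Cre. Injection was at 3 weeks of age, and Epcam-negative, CD45-negative fluorescent cells were sorted 3 weeks later in the YAP experiment and 4 weeks later in the Mst experiment. The TBG promoter is active in hepatocytes. Neither control received Cre, so that Cre, Sox9 deletion and YAP activation cannot be told apart in a comparison with a control. The same holds for other differences from the controls. In the Mst experiment only the control was given the GFP virus, so the virus and the fluorescent marker differ. In the YAP experiment the control was wild type rather than Sox9 floxed and was not given both viruses. Whether both libraries of a group stem from different mice is not in the labels. The p-values therefore rest on a spread between libraries that may be only technical.

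The ErbB receptors are receptor tyrosine kinases that signal as pairs. EGFR binds TGF-alpha, amphiregulin, epiregulin, HB-EGF and betacellulin. ErbB3 binds the neuregulins and has little kinase activity of its own, and ErbB2 has no known ligand and serves as the partner of the others. The ligands are made as membrane proteins and released by proteases. Paired receptors drive the RAS and ERK kinases and the PI3 kinase and AKT route. In liver, EGFR is abundant on hepatocytes, and its ligands are known as growth signals during regeneration.

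Promoter sequence came from the RefSeq table (GRCm38.p6). It is shown for Areg, the neighbour of Btc, and for tested members with a change of at least 1 log2 unit between 2 of the groups. Windows of 6 of the 10 members were used, 7 in all, and that of Erbb2, which was not tested, is not printed. Nrg1 and Hbegf also meet that limit, but no window of theirs was used. Their absence here does not tell whether the RefSeq table holds one. Each window is the 250 bases before an annotated start site, written 5′ to 3′ on the gene's strand. Capitals mark any match, on either strand, to the YAP partner motif of TEAD factors (GGAATG), the AP-1 motif (TGANTCA), the SOX core (ACAAT) or the cyclic AMP response element, CRE (TGACGTCA). The CRE was added to the search after the sequences had been seen.
Tgfa, chr6:86194972-86195221, plus strand: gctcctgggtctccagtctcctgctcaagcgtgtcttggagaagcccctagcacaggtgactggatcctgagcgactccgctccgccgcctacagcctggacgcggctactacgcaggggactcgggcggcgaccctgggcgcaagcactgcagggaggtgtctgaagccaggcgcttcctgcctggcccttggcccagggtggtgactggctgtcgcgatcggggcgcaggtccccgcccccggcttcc
Btc, chr5:91402995-91403244, minus strand: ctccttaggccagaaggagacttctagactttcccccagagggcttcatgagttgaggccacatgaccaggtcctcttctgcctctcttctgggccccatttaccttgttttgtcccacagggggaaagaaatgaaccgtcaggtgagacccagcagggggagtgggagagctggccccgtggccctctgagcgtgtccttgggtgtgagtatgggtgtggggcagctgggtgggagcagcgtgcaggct
Areg, chr5:91139349-91139598, plus strand: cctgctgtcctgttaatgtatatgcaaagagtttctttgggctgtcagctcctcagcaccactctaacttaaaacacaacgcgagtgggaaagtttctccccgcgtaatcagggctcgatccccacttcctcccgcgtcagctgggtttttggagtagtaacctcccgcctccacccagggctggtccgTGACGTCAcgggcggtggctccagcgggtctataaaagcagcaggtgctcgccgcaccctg
Egfr, chr11:16751953-16752202, plus strand: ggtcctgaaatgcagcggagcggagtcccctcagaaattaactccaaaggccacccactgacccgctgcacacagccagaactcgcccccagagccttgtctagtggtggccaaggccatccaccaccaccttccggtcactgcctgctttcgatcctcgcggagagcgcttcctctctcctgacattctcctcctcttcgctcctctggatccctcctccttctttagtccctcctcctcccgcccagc
Errfi1, first window, chr4:150853546-150853795, plus strand: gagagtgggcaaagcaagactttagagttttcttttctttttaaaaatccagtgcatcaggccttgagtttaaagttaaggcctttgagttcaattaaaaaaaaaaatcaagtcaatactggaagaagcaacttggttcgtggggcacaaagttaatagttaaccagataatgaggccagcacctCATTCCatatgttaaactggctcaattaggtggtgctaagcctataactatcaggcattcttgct
Errfi1, second window, chr4:150854820-150855069, plus strand: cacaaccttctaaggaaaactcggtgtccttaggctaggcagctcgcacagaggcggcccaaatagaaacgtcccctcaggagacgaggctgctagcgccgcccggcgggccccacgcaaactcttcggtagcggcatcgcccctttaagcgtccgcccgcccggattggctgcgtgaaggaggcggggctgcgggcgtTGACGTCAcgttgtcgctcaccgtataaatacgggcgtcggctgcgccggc
A TEAD match lies 65 bases before the start in the first Errfi1 window, and a CRE lies 51 bases before the start in the second. The second window lies within the annotated span of the Errfi1 gene. The Areg window has a CRE 61 bases before the start, and the Erbb2 window a TEAD match 88 bases before it. The Tgfa, Btc and Egfr windows hold none of these letters. Among 32817 promoter windows of the same length, 12.6% hold the TEAD letters, 6.75% those of AP-1, 27.7% the SOX core and 1.55% the CRE. A match is a description of the sequence and was not tested for binding.

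Several facts of the whole table touch these results. Its linear values summed to between 879620.3 and 1011693 per library, and their read depth is unknown. The gene means of the 2 control groups had been made equal before deposition (median difference 0.00849). So had those of the first and the second libraries of the Mst experiment (median difference 0.0051). The spread of each group around its mean had been multiplied, before deposition, by a factor that depends on the gene and had a median of 1.58. Among the tested members this factor ran from 1.05 for Egfr to 3 for Areg. Values were shifted upward in the activated libraries: the median change of all genes was 0.206 in YAP Sox9 null and 0.169 in Mst Sox9 null as deposited, and -0.0557 and -0.0699 after library medians were made equal. Sox9 matched the labels, at 4.41 and 5.28 in the 2 libraries of YAP Sox9 het against 2.28 and 2.62 in YAP Sox9 null, and at 6.47 and 6.0 in Mst Sox9 het against 1.41 and 1.29 in Mst Sox9 null. The floxed kinase transcripts did not show the deletion: against the floxed control, Stk4 (Mst1) differed by -0.36 ± 0.25 and -0.57 ± 0.25 in Mst Sox9 het and null (adjusted p = 0.547 and 0.222 in limma), and Stk3 (Mst2) by 0.22 ± 0.27 and 0.31 ± 0.27 (adjusted p = 0.779 and 0.621). Where their amplicons lie relative to the floxed exons is unknown here, and Mst deletion below names the genotype and virus on the labels. Yap1 differed from the control by 0.91 ± 0.24 in YAP Sox9 het (adjusted p = 0.0755 in limma) and by 1.19 ± 0.24 in YAP Sox9 null (adjusted p = 0.00556). In Mst Sox9 het and null it differed by -0.16 ± 0.24 and 0.15 ± 0.24 (adjusted p = 0.833 and 0.819). Whether the Yap1 amplicon reads the viral transcript is unknown here. Hepatocyte markers were high throughout, from Alb with a mean of 15.31 to Hnf4a with a mean of 9.64, and their summed linear CPM was 51930 to 75620 in controls and 52100 to 88810 in activated libraries. That sum is carried by Alb, and 2 of 7 tested hepatocyte markers were called lower over all activated groups. Ttr lay at 11.82 to 12.40 in controls and at 10.40 to 11.40 in activated libraries, and Tat at 10.62 to 11.75 and at 9.08 to 11.13. The 8 endothelial markers summed to 20.55 to 43.8 in controls and to 83.48 to 286.1 in activated libraries, with Stab2 highest and Tek lowest, and all 8 had positive changes in each activated group. Of them 2 were called higher in YAP Sox9 het, 4 in YAP Sox9 null and 6 in each Mst group. Of 8 bile duct markers only 4 were kept. The list summed to 146.7 to 336.5 in controls and 1252 to 3772 in activated libraries, nearly all of it Spp1 (log2 6.78 to 8.16 and 10.15 to 11.85). Krt7, Cftr and Sctr, the lowest, stayed at log2 0.03 or less in all libraries, and Epcam was at 0.83 in the controls, 0.82 to 1.05 in the Mst groups and 1.51 to 3.14 in the YAP groups. Macrophage markers summed to 16.4 to 42.26 and 26.96 to 124.3. In these bulk samples, a change in the number of cells of a type and a change in RNA per cell cannot be told apart, and the part of these markers in the results below was not tested.

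In the 4 comparisons of an activated group with the control of its experiment, the call was a Benjamini-Hochberg adjusted p under 0.05 in limma over all 10681 genes. In YAP Sox9 het, 1 of 8 members rose (Nrg1) and 0 fell, where 1.40% of all genes were called higher and 0.169% lower. In YAP Sox9 null 1 rose (Nrg1) and 0 fell, against 6.64% higher and 0.477% lower. The count in Mst Sox9 het was 1 (Nrg1) and 0, against 3.45% and 0.796%, and in Mst Sox9 null it was 2 (Nrg1 and Btc) and 0, against 6.88% and 0.880%. At an unadjusted p under 0.05 the members numbered 2, 4, 5 and 5 of 8 in that order, where the share of all genes was 10.6%, 20.8%, 16.1% and 19.5%. Members whose libraries did not overlap between the groups numbered 2, 4, 7 and 7, against 34.2%, 51.6%, 45.3% and 52.4% of all genes. The median change of the members was 0.33, 0.29, 0.63 and 0.87, beside 0.07, 0.21, 0.08 and 0.17 for all genes. Of all calls, 93.3% were rises in YAP Sox9 null and 88.7% in Mst Sox9 null, and these shares were 80.2% and 73.9% with library medians made equal. The 2 groups of an experiment share their control libraries.

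The rescaled spread bears on each of these calls. With the deviations before the rescaling, the differences are the same, and the members called numbered 1, 4, 4 and 6 in the same order, while the genes called numbered 1237, 2964, 2116 and 2815 of 10681. Hbegf was then called in YAP Sox9 null (1.25, adjusted p = 0.00665 in limma), Mst Sox9 het (1.23, adjusted p = 0.00954) and Mst Sox9 null (1.27, adjusted p = 0.00576). Errfi1 was called in the same groups (-1.19, adjusted p = 0.00601; -1.01, adjusted p = 0.0186; -1.05, adjusted p = 0.0115). Tgfa was called in YAP Sox9 null (adjusted p = 0.0486) and Mst Sox9 null (adjusted p = 0.0252), Btc in Mst Sox9 het too (adjusted p = 0.00629), and Areg in Mst Sox9 null (adjusted p = 0.0128). All other values below use the deviations as deposited.

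**Figure D1:**
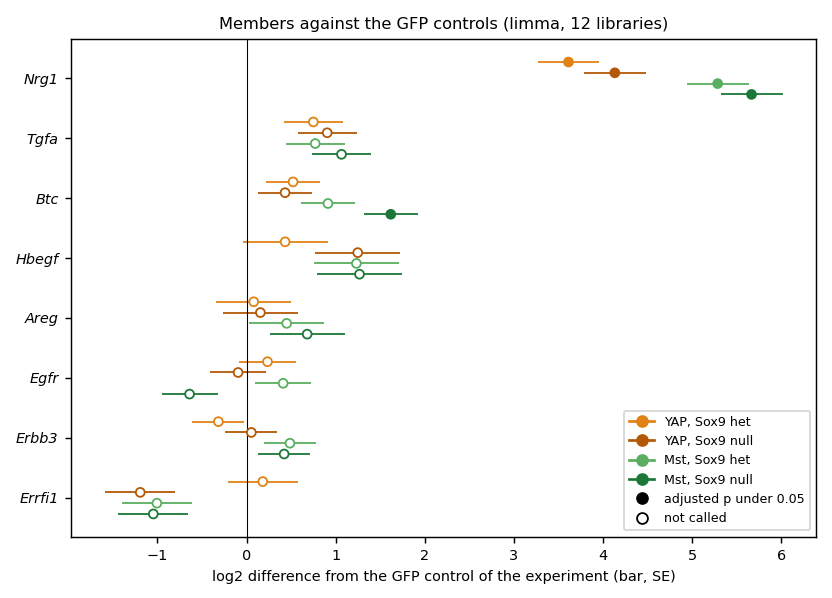
Log2 difference of each tested member from the GFP control of its experiment (x axis), with 1 point per activated group and bars of 1 SE. Filled points had an adjusted p under 0.05. Nrg1 lies between 3.61 and 5.67 in the 4 groups, while every other difference lies between -1.19 and 1.62.

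Nrg1 encodes neuregulin 1, the ligand of ErbB3 and ErbB4, and lies on chromosome 8 at 31814551 to 32884029 on the minus strand (GRCm38, GENCODE M21), with 12 annotated coding transcripts. In the wild type GFP control both libraries were at 2.41 log2 CPM, and in the floxed GFP control they were at 2.56 and 2.28. In YAP Sox9 het they were at 5.78 and 6.26, and in YAP Sox9 null at 6.73 and 6.35. Mst Sox9 het had 7.14 and 8.28, and Mst Sox9 null had 8.51 and 7.67. All 8 activated libraries thus lay above all 4 controls, and all 4 libraries with Mst1 and Mst2 deletion lay above all 4 with YAP S127A.

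Nrg1 rose by 3.61 ± 0.35 in YAP Sox9 het (log2, SE, n = 2 against 2; adjusted p = 4.97e-05 in limma), a 12.2-fold difference. The rise was 4.13 ± 0.35 in YAP Sox9 null, or 17.5-fold (adjusted p = 3.36e-06). In Mst Sox9 het it was 5.29 ± 0.35, or 39.1-fold (adjusted p = 5.79e-07), and in Mst Sox9 null 5.67 ± 0.35, or 50.8-fold (adjusted p = 1.1e-07). By size these were the 9th, the 20th, the 3rd and the 3rd largest rises among 10681 genes. With any 1 library left out the 4 differences stayed between 3.38 and 6.09, and all adjusted p-values were at most 0.00215. The position of the amplicon is unknown here, so the values do not tell which of the transcripts was measured.

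The Nrg1 rise was larger by 1.67 ± 0.49 with Mst deletion than with YAP S127A when 1 Sox9 allele was floxed (95% interval 0.63 to 2.72, unadjusted p = 0.0038, adjusted p = 0.301 in limma). With both alleles floxed it was larger by 1.53 ± 0.49 (95% interval 0.49 to 2.58, unadjusted p = 0.00686, adjusted p = 0.418). Nrg1 levels did not overlap between Mst and YAP libraries, but levels are not what was tested here. The share of all genes without such an overlap is not known here. Neither of the 2 tested differences passed the adjusted threshold. The former passed without library 1 of Mst Sox9 het (2.24, adjusted p = 0.0462). The experiments differ in the means of activation, in the reporter and in the weeks after injection, and these cannot be told apart. Over the members, 0 of 8 were called in either of these differences, against 0.197% and 0.272% of all genes. At an unadjusted p under 0.05, Nrg1 and Errfi1 differed with 1 floxed Sox9 allele and Nrg1 and Btc with both, where 7.63% and 6.57% of all genes did.

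Of the 9317 genes whose mean reached a log2 value of 2, those that followed Nrg1 most closely over the 12 libraries were Bcl2, an inhibitor of apoptosis (Pearson r = 0.987), Ctgf, a matricellular protein gene widely used as a YAP target (r = 0.983), and F2rl1, a protease-activated receptor gene (r = 0.977). These correlations describe libraries that share 6 groups and a common scale. Ctgf was at 0.58, 1.11, 0.90 and 0.73 in the controls, at 4.73 to 6.01 with YAP S127A and at 7.02 to 7.84 with Mst deletion. Like Nrg1, it had no overlap between these 3 sets of libraries.

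**Figure D2:**
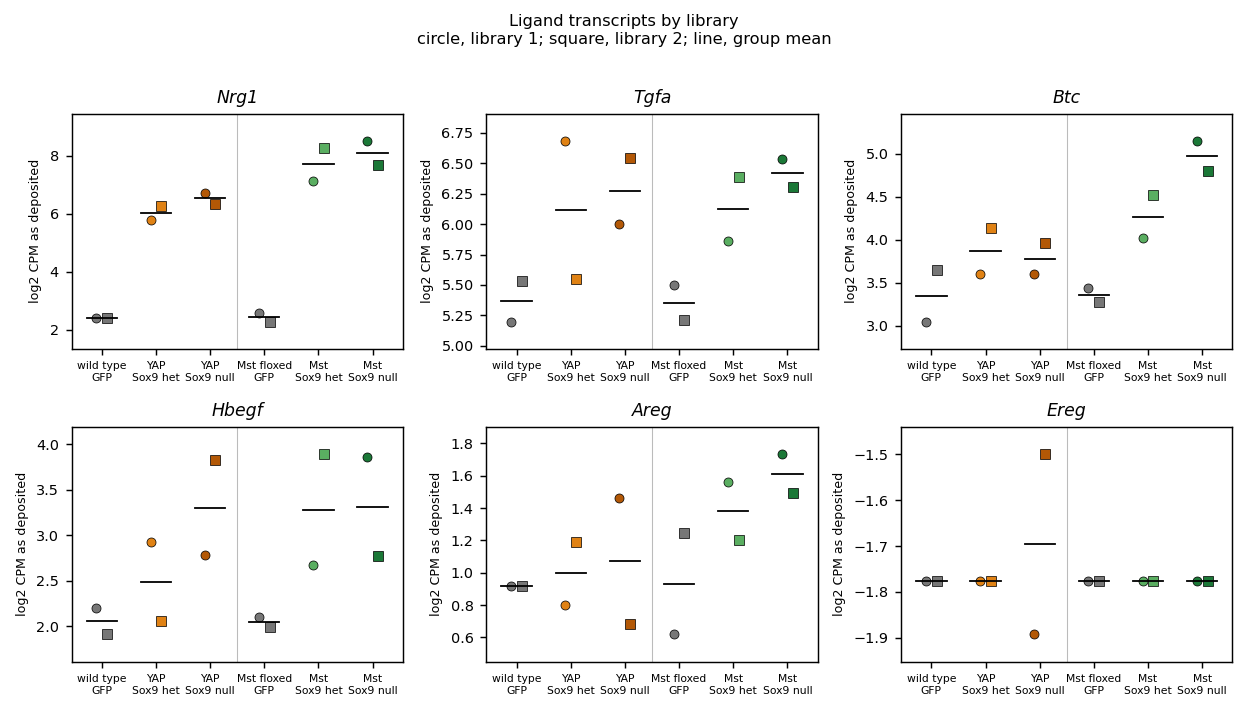
Log2 CPM as deposited (y axis) of the 6 ligand genes in each library, by group on the x axis. Circles are library 1, squares library 2 and lines the group mean, and each panel has its own scale. Nrg1 is at 2.28 to 2.56 in the controls and at 5.78 to 8.51 in activated libraries, and Ereg stays between -1.89 and -1.50.

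Betacellulin (Btc) binds both EGFR and ErbB4. The gene lies on chromosome 5 at 91357261 to 91402994 on the minus strand. Control libraries were at 3.05 and 3.65 (wild type) and at 3.44 and 3.27 (floxed). The YAP groups had 3.61 and 4.13 (Sox9 het) and 3.60 and 3.96 (Sox9 null), which overlapped their control. Mst Sox9 het had 4.02 and 4.52, and Mst Sox9 null had 5.15 and 4.80, the highest of all libraries.

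Btc rose in Mst Sox9 null by 1.62 ± 0.30 (adjusted p = 0.00328 in limma), a 3.07-fold difference. Without library 1 of that group the difference was 1.45 and the call was lost (adjusted p = 0.0526). In the other activated groups the differences were 0.52 ± 0.30 (YAP Sox9 het, adjusted p = 0.606), 0.43 ± 0.30 (YAP Sox9 null, adjusted p = 0.471) and 0.91 ± 0.30 (Mst Sox9 het, adjusted p = 0.121). Between the 2 Mst groups, Sox9 null was 0.71 ± 0.30 higher (unadjusted p = 0.0346, adjusted p = 0.779 in limma). The libraries of these 2 groups did not overlap, as for 30.5% of all genes. The genes that followed Btc most closely were Krt8, a keratin of simple epithelia (r = 0.969 over 12 libraries), Yif1b (r = 0.963) and Myo9b (r = 0.959).

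Areg (amphiregulin, chromosome 5, 91139599 to 91148432) and Ereg (epiregulin, 91074622 to 91093646) lie on the plus strand in the same region as Btc. Areg was low, near the log2 value of 1 used as the limit for testing. It was at 0.92 and 0.92 in the wild type and 0.62 and 1.25 in the floxed GFP control. It was at 0.80 and 1.19 in YAP Sox9 het and 1.46 and 0.68 in YAP Sox9 null, and both overlapped their control. In Mst Sox9 het it was at 1.56 and 1.20, and in Mst Sox9 null, the only group without overlap, at 1.73 and 1.49. The differences from the controls were 0.08, 0.16, 0.45 and 0.68, each with an SE of 0.42, and none passed (adjusted p = 0.981, 0.893, 0.693 and 0.426). In the YAP groups the sign of the Areg difference turned negative with library medians made equal or after quantile normalization. Ereg was listed at -1.78 in all 10 libraries outside YAP Sox9 null, where it was at -1.89 and -1.50, and no fold is given for it. Of these 3 neighbouring ligand genes, Btc alone had a called change as deposited. Ereg could not be called and Areg was near the limit for testing, and a difference in change between the 3 genes was not tested.

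Tgfa encodes transforming growth factor alpha, an EGFR ligand, and lies on chromosome 6 at 86195223 to 86275719. Control libraries lay between 5.20 and 5.53. The activated libraries were at 6.68 and 5.55 (YAP Sox9 het), 6.0 and 6.54 (YAP Sox9 null), 5.86 and 6.39 (Mst Sox9 het) and 6.54 and 6.30 (Mst Sox9 null). All 8 were above all 4 controls, with 5.55 the lowest of them against 5.53, the highest control. The differences were 0.75, 0.90, 0.77 and 1.07 with an SE of 0.33, and none passed in a single group (adjusted p = 0.425, 0.116, 0.255 and 0.0629). That of Mst Sox9 null passed when only the 6 libraries of its experiment were fitted (adjusted p = 0.0438). Without library 2 of YAP Sox9 het, the low one, the difference in that group was 1.32 and passed (adjusted p = 0.0439).

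Hbegf encodes heparin-binding EGF-like growth factor, a ligand of EGFR and ErbB4, and lies on chromosome 18 at 36504927 to 36515805 on the minus strand. It was at 2.20 and 1.91 in the wild type and 2.10 and 1.99 in the floxed GFP control. Both libraries of a group were far apart after activation: 2.92 and 2.05 in YAP Sox9 het, 2.78 and 3.82 in YAP Sox9 null, 2.67 and 3.89 in Mst Sox9 het, 3.85 and 2.77 in Mst Sox9 null. Only YAP Sox9 het overlapped its control. The differences were 0.43, 1.25, 1.23 and 1.27 with an SE of 0.48, and none passed (adjusted p = 0.839, 0.137, 0.195 and 0.136).

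When the mean of the 4 activated groups was set against that of the 2 controls, a comparison that uses all 12 libraries, 4 of 8 members rose and 1 fell. Of all genes, 12.3% rose and 1.49% fell there, and rises made up 89.2% of all calls as deposited and 67.0% with library medians made equal. The mean change was 4.68 ± 0.21 for Nrg1 (adjusted p = 1.83e-09 in limma, the 5th largest rise), 0.87 ± 0.20 for Tgfa (adjusted p = 0.00782), 0.87 ± 0.19 for Btc (adjusted p = 0.00453) and 1.05 ± 0.29 for Hbegf (adjusted p = 0.0248). Areg was at 0.34 ± 0.26 (adjusted p = 0.444). Nrg1 and Tgfa had no overlap between all controls and all activated libraries, which held for 7.19% of all genes. The Tgfa call was lost without library 1 of the wild type GFP control (0.79, adjusted p = 0.0579). The Hbegf call was lost with library medians made equal (0.87, adjusted p = 0.0559), with quantile normalization (0.73, adjusted p = 0.122), without a filter (adjusted p = 0.105), and without any 1 of the control libraries, library 1 of YAP Sox9 het or library 2 of YAP Sox9 null (0.91 to 1.12, adjusted p up to 0.104).

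All 5 tested ligand genes had positive differences in each of the 4 activated groups as deposited, with medians of 0.52, 0.91, 0.91 and 1.27, where 58.4%, 69.0%, 59.0% and 66.9% of all genes were positive. With library medians made equal or after quantile normalization, 4 of 5 stayed positive in the YAP groups, where Areg turned, and 5 of 5 in the Mst groups. The endothelial marker sum, given above, was higher in the same 8 libraries, and its part in the ligand differences was not tested.

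**Figure D3:**
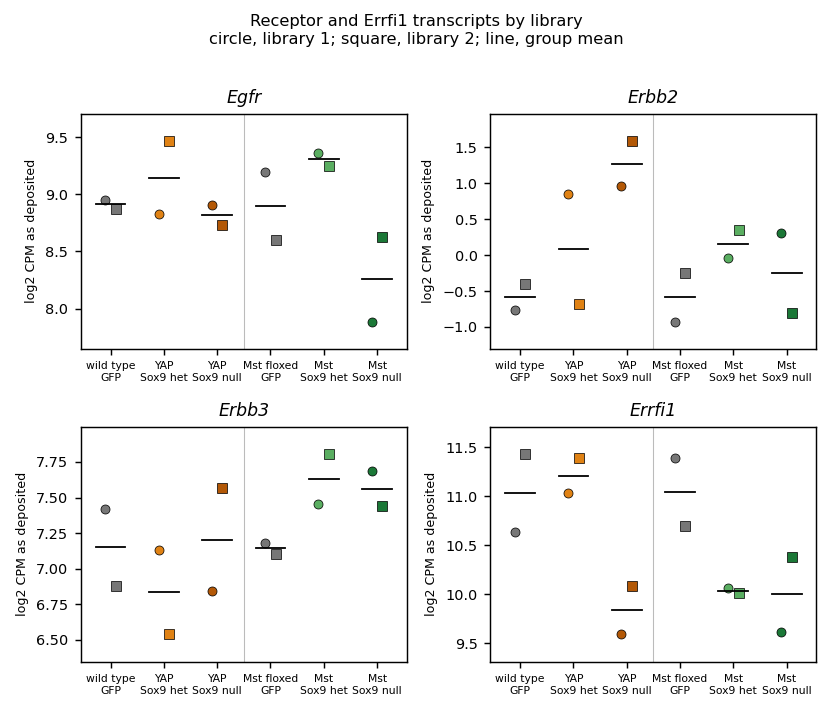
Log2 CPM as deposited (y axis) of the receptor genes Egfr, Erbb2 and Erbb3 and of Errfi1 in each library, by group on the x axis. Circles are library 1, squares library 2 and lines the group mean. Egfr is lowest in Mst Sox9 null (7.89 and 8.63), and Errfi1 is at 10.38 or less in 3 activated groups against 10.63 to 11.43 in the controls and YAP Sox9 het.

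Egfr encodes the receptor of the EGF ligands and lies on chromosome 11 at 16752203 to 16918158. It was at 8.95 and 8.87 in the wild type and 9.19 and 8.60 in the floxed GFP control. YAP Sox9 het had 8.83 and 9.47, YAP Sox9 null 8.91 and 8.73, Mst Sox9 het 9.36 and 9.25, and Mst Sox9 null 7.89 and 8.63. Both libraries of Mst Sox9 het lay above those of the floxed control and of Mst Sox9 null, and the other groups of an experiment overlapped.

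Activation as a whole left Egfr at a difference of -0.02 ± 0.19 (95% interval -0.43 to 0.39, adjusted p = 0.96 in limma). Between Mst Sox9 null and Mst Sox9 het the difference was -1.05 ± 0.31, or 0.483 times the level (95% interval -1.72 to -0.38, unadjusted p = 0.00435). It did not pass over all genes (adjusted p = 0.518), although it was the 24th largest fall of 10681 genes there. Leaving out 1 library gave -1.42 to -0.68. The corresponding difference with YAP S127A was -0.33 ± 0.31 (adjusted p = 0.92), and the mean of both experiments was -0.69 ± 0.22 (unadjusted p = 0.00709, adjusted p = 0.327). The difference between the experiments in this respect was -0.72 ± 0.44 (adjusted p = 1).

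Erbb3, the receptor gene for neuregulins, lies on chromosome 10 at 128567523 to 128589652 on the minus strand. Its values lay between 6.54 and 7.80 in all 12 libraries. They were 7.42 and 6.88 in the wild type GFP control, 7.13 and 6.54 in YAP Sox9 het and 6.84 and 7.56 in YAP Sox9 null. The floxed GFP control had 7.18 and 7.10, Mst Sox9 het 7.45 and 7.80, and Mst Sox9 null 7.68 and 7.44, so that both Mst groups lay above their control. The 4 differences were -0.32, 0.05, 0.49 and 0.42 with an SE of 0.29 (adjusted p = 0.8, 0.951, 0.462 and 0.491), and over all activated groups the 95% interval was -0.22 to 0.54.

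Erbb2, the partner receptor gene (chromosome 11, 98412470 to 98437716), was under the limit for testing. Its control libraries were at -0.77, -0.40, -0.92 and -0.25, and 5 of the 6 libraries of YAP Sox9 het and the Mst groups lay between -0.81 and 0.34. The exception was library 1 of YAP Sox9 het at 0.86, and YAP Sox9 null stood highest at 0.96 and 1.59. A fit without the limit gave 1.86 ± 0.54 for YAP Sox9 null against its control, which did not pass (adjusted p = 0.126).

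Errfi1 encodes Mig-6, which binds active EGFR and ErbB2 and blocks their kinase, and its transcript is known to be induced by the receptors it inhibits. It lies on chromosome 4 at 150853919 to 150868892. The GFP controls were at 10.63 and 11.43 (wild type) and 11.39 and 10.70 (floxed), and YAP Sox9 het was in the same range at 11.04 and 11.39. The other 3 activated groups lay lower, at 9.59 and 10.09 (YAP Sox9 null), 10.06 and 10.01 (Mst Sox9 het) and 9.62 and 10.38 (Mst Sox9 null). None of these 6 libraries overlapped with the controls or with YAP Sox9 het.

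The Errfi1 difference from the control was 0.18 ± 0.39 in YAP Sox9 het (adjusted p = 0.937 in limma). It was -1.19, -1.01 and -1.05 with an SE of 0.39 in the other 3 groups, and none passed (adjusted p = 0.0836, 0.202 and 0.137). Over all activated groups Errfi1 fell by 0.77 ± 0.24 (adjusted p = 0.0453). That call was lost without a filter (adjusted p = 0.121) and without any 1 of library 2 of the wild type control, library 1 of the floxed control, library 1 of YAP Sox9 het, either library of YAP Sox9 null, either library of Mst Sox9 het or library 1 of Mst Sox9 null (-0.83 to -0.57, adjusted p up to 0.238).

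The groups that differ in the second floxed Sox9 allele were then compared within each experiment. With YAP S127A, the Errfi1 difference of Sox9 null from Sox9 het was -1.38 ± 0.39 (unadjusted p = 0.00316, adjusted p = 0.301 in limma). It was the 33rd largest fall of 10681 genes and had no overlap, as had 28.2% of all genes. After Mst deletion the difference was -0.04 ± 0.39 (adjusted p = 1), and the 2 experiments differed by 1.34 ± 0.56 (unadjusted p = 0.0295, adjusted p = 1). Limma called 0 of 8 members for the second Sox9 allele with YAP S127A, against 0.169% of all genes, and 1 (Errfi1) had an unadjusted p under 0.05, as did 6.62% of all genes. It called 0 after Mst deletion, against 0.0468%, with 2 (Btc and Egfr) at an unadjusted p under 0.05, beside 5.89% of all genes. Over both experiments it called 0, against 0.131%, with 2 (Egfr and Errfi1) beside 9.44%. The difference between experiments gave 0, against 0% of all genes, with 1 (Errfi1) beside 3.01%. Sox9 null and Sox9 het libraries did not overlap for 2 of 8 members with YAP S127A (Nrg1 and Errfi1), against 28.2% of all genes. After Mst deletion they did not overlap for 2 (Btc and Egfr), against 30.5%. For Nrg1 the second allele made a difference of 0.52 ± 0.35 with YAP S127A (95% interval -0.22 to 1.26) and of 0.38 ± 0.35 after Mst deletion (95% interval -0.36 to 1.12), so that rises of up to the upper bounds lie within the intervals.

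Other genes of the pathway came from a list of 62, of which 60 were in the table and 51 were tested. They cover other ligands and the receptor Erbb4, ligand sheddases and their trafficking factors, adaptors, the RAS and MAP kinases, the PI3 kinase and AKT route, inhibitors at the receptor, feedback inhibitors of ERK and ERK response genes. Called higher and lower in the 4 activated groups were 1 and 0 of 51 (YAP Sox9 het), 4 and 2 (YAP Sox9 null), 2 and 0 (Mst Sox9 het) and 4 and 0 (Mst Sox9 null). The shares of all genes called higher were 1.40%, 6.64%, 3.45% and 6.88%, so that the counts of rises lie near the background. The shares called lower were 0.169%, 0.477%, 0.796% and 0.880%. The 2 falls of 51 in YAP Sox9 null, both in ERK response genes (Egr1 and Fos, below), exceed that share. Over all activated groups 7 of 51 rose and 0 fell, where 12.3% of all genes rose and 1.49% fell. The medians of the 51 differences were 0.10, 0.23, 0.11 and 0.20, beside the all-gene medians of 0.07, 0.21, 0.08 and 0.17. Inhibitors at the receptor (9 tested) and feedback inhibitors of ERK (6 tested) had 0 calls in each of these 4 comparisons. Over all activated groups 1 inhibitor at the receptor rose, the ubiquitin ligase gene Cblb (0.56 ± 0.16, adjusted p = 0.0297 in limma). Erbb4, the second neuregulin receptor, lay between 0.87 and 2.32 in all libraries and did not pass (differences of 0.06, 0.63, 0.51 and 0.88, adjusted p = 0.986, 0.431, 0.627 and 0.258).

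Rhbdf1 encodes iRhom1, which carries the sheddase of the EGF ligands to the cell surface, and was the only 1 of the 51 called in all 4 groups. The control libraries were at 3.24 to 3.46. The YAP groups were at 5.77 and 5.55 (Sox9 het) and 6.51 and 6.50 (Sox9 null), and the Mst groups at 5.25 and 5.94 (Sox9 het) and 6.10 and 5.64 (Sox9 null), without overlap with any control. It rose by 2.32, 3.17, 2.24 and 2.52 with an SE of 0.26 (adjusted p = 2.12e-04, 3.36e-06, 9.39e-05 and 1.79e-05 in limma), and these calls held with any 1 library left out. Its relative Rhbdf2 (iRhom2) rose in Mst Sox9 null by 1.36 ± 0.32 (adjusted p = 0.0164), a call lost without library 1 of that group (0.94) or library 1 of the floxed control (1.08), without a filter or within the 6 libraries of the experiment.

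Of the signalling genes, Akt1, a kinase downstream of PI3 kinase, rose in YAP Sox9 null by 1.34 ± 0.29 (adjusted p = 0.00937 in limma), from 6.13 and 6.22 to 7.24 and 7.79. The call was lost without library 2 of YAP Sox9 null (1.06) or either library of the control (1.30 and 1.38). The adaptor gene Gab2 rose in the same group by 1.44 ± 0.40 (adjusted p = 0.0395), and Mapk3, the ERK1 gene, rose in Mst Sox9 null by 0.999 ± 0.28 (adjusted p = 0.0395). Both of the latter calls were lost without any 1 library of the groups compared and with library medians made equal.

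The ERK response genes did not move alike. Egr1, an immediate early transcription factor gene, was at 4.79 and 4.76 in YAP Sox9 null, against 7.78 and 7.99 in its control and 7.79 and 7.11 in YAP Sox9 het. It was at 9.08 and 8.70 in Mst Sox9 het and 8.86 and 8.48 in Mst Sox9 null, above 7.41 and 8.14 in the floxed control. Egr1 changed in YAP Sox9 null by -3.11 ± 0.29 against the control (adjusted p = 8.76e-06 in limma) and by -2.68 ± 0.29 against YAP Sox9 het (adjusted p = 3.66e-04). It rose in Mst Sox9 het by 1.11 ± 0.29 (adjusted p = 0.044), a call lost without library 1 of the floxed control (0.75), either library of Mst Sox9 het, without a filter or under either scaling. Fos, another immediate early gene, was at 3.69 and 3.85 in YAP Sox9 null and at 5.24 to 7.29 in all other libraries. It changed by -2.19 ± 0.45 against the control (adjusted p = 0.00676) and by -2.57 ± 0.45 against YAP Sox9 het (adjusted p = 0.0274). The former call was lost without library 2 of the control (-1.47) or either library of YAP Sox9 null, and the latter without any 1 of its 4 libraries (-3.05 to -2.09). Both were lost without a filter. Errfi1 differed from the control by -1.19 in YAP Sox9 null and by -1.01 and -1.05 in Mst Sox9 het and null, and none of these passed. Mean Egr1 and Fos values were not below the control in the Mst groups. A relation between these patterns was not tested.

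Myc, a growth transcription factor gene, rose in YAP Sox9 null by 1.68 ± 0.30 (adjusted p = 0.00236 in limma), from 5.0 and 5.10 to 7.24 and 6.22. In Mst Sox9 null it rose by 1.56 ± 0.30 (adjusted p = 0.00358), from 4.89 and 5.26 to 6.64 in both libraries, and without library 1 of the floxed control that value was 1.38 (adjusted p = 0.0524).

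**Figure D4:**
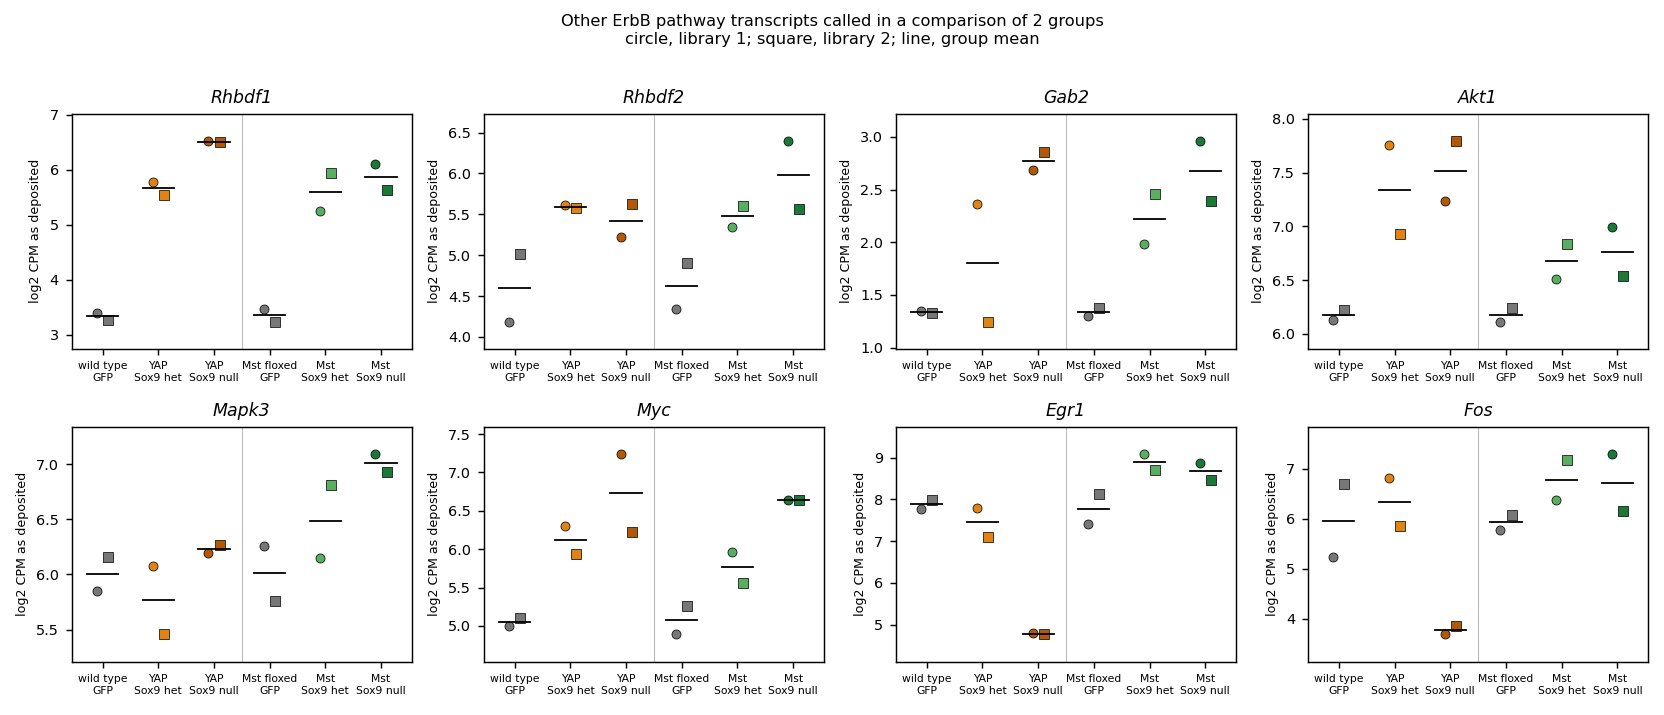
Log2 CPM as deposited (y axis) of the 8 other pathway genes called in a comparison of 2 groups, in each library, by group on the x axis. Circles are library 1, squares library 2 and lines the group mean. Rhbdf1 is at 3.24 to 3.46 in the controls and at 5.25 to 6.51 in activated libraries, while Egr1 and Fos are lowest in YAP Sox9 null.

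Across the 12 libraries the ligands differed in how closely they followed Nrg1, as a description with no test: Pearson r was 0.839 for Btc, 0.789 for Tgfa, 0.772 for Hbegf and 0.606 for Areg. Hbegf and Tgfa followed each other with r = 0.857. Within each activated group and the floxed GFP control, the library higher in one was higher in the other. In the wild type GFP control the order was opposite (Hbegf 2.20 and 1.91, Tgfa 5.20 and 5.53). The equal means of first and second libraries tie the groups of the Mst experiment together, so their orders are not separate observations. Errfi1 ran against Nrg1 (r = -0.675), and Egfr showed little relation to it (r = -0.142). The libraries share 6 groups, a scale and rescaled deviations, so these values are not independent evidence of a relation.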

How the data were processed

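Messenger RNA of sorted hepatocytes was read with an Ion AmpliSeq panel on an Ion S5, after RNA isolation with the RNAqueous Micro kit, per the labels' protocols. The authors deposited log2 CPM values, which the labels call RPM. The aligner, the counting tool and the genome build were not given in the sources used here, and read depth was not given either. Equal control means and a factor per gene on the deviations were found in the deposited values, the latter recovered for 10661 of 10681 kept genes. A factor may be overestimated where the multiples of a gene share a divisor.

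Groups came from the labels. Limma 3.58.1, run in R 4.3.3, fitted the 6 group means to the 12 libraries (trended prior variance, 15.4 total degrees of freedom), two-sided, with Benjamini-Hochberg adjustment over 10681 genes and calls under 0.05. In the text, ± after a difference is the SE. The fit was also run on simulated data with independent normal noise of the fitted spread. Those data lacked the equal means of the deposited values, so that run is no check of the calls given here. Between the libraries of a group, r across genes was 0.953 to 0.982. The members and lists were chosen with earlier results of these data known. Named were all members, pathway genes called in a comparison of 2 groups without overlap between libraries, up to 8 per direction, the 3 genes most correlated with each called member, Sox9, and the highest and lowest marker of each list. Erbb4, Cblb, Stk4, Stk3, Yap1, Ctgf values and further marker values were given beyond that rule after they had been seen. Marker lists of T and NK cells, B cells, neutrophils (summed linear CPM of at most 3.93, 1.12 and 3.59) and stellate cells and fibroblasts (30.3 to 40.52 in controls, 23.5 to 86.52 in activated libraries) were also examined. Alternatives were other filters, a pseudocount of 1, other scalings, no trend, fewer libraries, a replicate block, deviations before rescaling and leaving out each library. Promoters and gene positions came from RefSeq (GRCm38.p6) and GENCODE M21 (GRCm38).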

Additional observations from a re-analysis of the deposited data

Results flagged for a closer look

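Egr1 differed between the experiments. Its change from the control with both Sox9 alleles floxed was higher by 4.00 ± 0.42 (log2, SE) after Mst deletion than with YAP S127A (adjusted p = 4.8e-04 in limma, a test of the difference itself). Without any 1 library the value stayed between 3.64 and 4.37. The experiments also differ in the means of activation, the reporter and the weeks after injection, which cannot be told apart.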

How the results depend on the processing

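For the tested members, 1302 differences were recomputed under other settings: 1262 kept their side of the threshold, 20 lost a call, 20 gained one and 0 called differences changed sign, while 66 uncalled differences changed sign. The 4 Nrg1 calls against the controls held under every setting run. With the deviations before rescaling, the genes called numbered 1237 (YAP Sox9 het), 2964 (YAP Sox9 null), 486 (YAP Sox9 null against het), 2116 (Mst Sox9 het), 2815 (Mst Sox9 null), 202 (Mst Sox9 null against het), 838 (second Sox9 allele over both experiments), 64 (its difference between experiments), 631 and 588 (differences in activation, Sox9 het and null) and 3843 (all activated). The members called were then 4 (YAP Sox9 null), 1 (YAP Sox9 null against het), 4 (Mst Sox9 het), 6 (Mst Sox9 null), 2 (second allele over both), and 1 and 2 (differences in activation). As deposited the genes called were 168, 760, 18, 454, 829, 5, 14, 0, 21, 29 and 1477 in the first order. Without a filter they were 72, 369, 5, 189, 416, 2 and 5 for the first 7, and 3 and 8 for the differences in activation, and 3 members were called in all activated groups. YAP Sox9 null gave 484 genes with library medians made equal, 449 after quantile normalization and 483 within its experiment. With no trend in the prior, YAP Sox9 null against het gave 6 genes, the second allele over both 8, and the differences in activation 3 and 7. Within their experiment, YAP Sox9 null against het gave 9 genes and Mst Sox9 null against het 2. The cause of these shifts was not tested, apart from the fewer libraries or the larger number of genes that a setting itself holds.

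Leaving out 1 library gave 92 (without library 1 of the wild type control) to 291 genes (without library 2 of YAP Sox9 het) and 1 to 2 members (YAP Sox9 het), 328 to 471 genes (YAP Sox9 null, without its library 2 and library 1), 4 to 128 (YAP Sox9 null against het, without library 2 and library 1 of YAP Sox9 het), 189 to 490 (Mst Sox9 het, without its library 2 and library 1), 348 to 642 genes and 1 to 2 members (Mst Sox9 null, without its library 1 and library 2), 3 to 20 (Mst Sox9 null against het), 6 to 115 (second allele over both), 0 to 18 (its difference between experiments), 0 to 39 genes and 0 to 1 members (activation, Sox9 het), 14 to 29 (activation, Sox9 null) and 979 to 1953 genes and 3 to 5 members (all activated). A group left with 1 library was assumed to vary like the others.

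The deviations of libraries with the same number correlated at -0.644 to -0.0627 within an experiment. Gene by gene, the mean over the libraries numbered 1 equals that over those numbered 2 with Mst deletion and its control (median difference 0.0051). That by itself makes the correlations of the Mst experiment negative. Those of the YAP experiment were negative too, and the reason was not tested. Whether the numbers pair the samples therefore cannot be read from the values in the Mst experiment and was not tested in the YAP experiment. The labels do not say it for either. The main fit takes no account of these equal means, and so counts more free deviations in the Mst experiment than there are. What this does to the p-values was not tested. A fit with the number as a replicate block called 177 genes in YAP Sox9 het, 720 in YAP Sox9 null, 438 in Mst Sox9 het and 802 in Mst Sox9 null, and 3 for the difference between experiments of the second Sox9 allele. It changed no number of members called.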
